A study of Mus musculus with 6 samples.

Results

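Transcripts of vesicle trafficking and lysosomal granule sorting genes were examined among RNAs recovered with an antibody against METTL3, the catalytic subunit of the complex that methylates adenosines of mRNA (m6A), in splenic natural killer (NK) cells. The genes were taken by symbol, with a rule on name stems such as Vps, Snx, Rab, Sec, Ap, Golg, Hps and Atg and on single names such as Lyst and Lrba, which used no measured value and found 66 of the 2652 genes in the deposited table. The NK cells came from the spleens of wild-type C57BL/6 mice in which NK cells had been expanded in vivo by hydrodynamic injection of the IL-15 plasmid pLIVE-IL-15, and were sorted before lysis. A minor portion of the lysate was kept as input, and the remainder was incubated with anti-METTL3 antibody (METTL3-RIP), with 3 libraries of each kind. All libraries thus share the strain, the wild-type Mettl3 and the IL-15 treatment, and no mock immunoprecipitation was analysed here. No source says whether libraries of a group came from separate mice, so p-values measure only the spread between these libraries, which may be technical.

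Cytotoxic NK cells kill by releasing secretory lysosomes, the lytic granules, at the contact with a target cell. Granule proteins leave the endoplasmic reticulum in coated vesicles, pass the Golgi apparatus, are sorted by clathrin adaptors and endosomal tethers, and the mature granule is docked and primed at the plasma membrane. Inherited loss of several of these genes, among them LYST and UNC13D, causes disorders in which lysosome-related organelles are abnormal or lytic granules are not released.

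The table lists genes that the authors chose for a higher level in METTL3-RIP, so the direction of the comparison with input is fixed and was not a finding for these genes. The deposited values are RPKM (reads scaled by exon length in kilobases and by library total in megareads), which allow levels of different genes to be compared per length. The library totals implied by the values were between 9401509 and 11809744 reads for METTL3-RIP and between 14710607 and 15992386 for input. Of the markers looked for, 0 of 12 NK cell, 0 of 6 T cell, 0 of 4 B cell, 0 of 5 myeloid and 0 of 2 erythroid genes are in the table, so the cell type label could not be checked. As RNA was measured in bulk, the number of cells that hold a transcript and its amount per cell cannot be told apart.

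METTL3 and its partners methylate adenosines in a short consensus that includes the bases GGACT, with A as the methylated base. To show where this sequence lies in the transcripts the results turn on, a single copy per gene is marked. It is the copy nearest to the stop codon whose 30 bases lie within a single exon, so a nearer copy at an exon junction may exist. The genes are 4 members of granule and BEACH biology (Lyst, Lrba, Hps6 and Unc13d) and the 4 members called higher than the median listed gene (Nbeal2, Atg2a, Hip1 and Vps13d). Each line gives 30 bases of the sense strand read from GRCm38, 5′ to 3′, with the marked GGACT in capitals. The Unc13d line also holds another copy, left in lower case.
Nbeal2: ctgggtcttgcaGGACTatgtgtccccagt
Lyst: atggagcacatgGGACTtgaagcctgtgag
Lrba: ccaagcaaggaaGGACTtcaaacaccactc
Hps6: agcacgaaggtgGGACTtgtgtgtgcaata
Unc13d: acctggactgacGGACTgtgcagagccggg
Vps13d: gcagttggagctGGACTcctgaggacaccc
Atg2a: ggaggaggcccaGGACTgactgcaggcacc
Hip1: agagagatcagtGGACTgacagggcagctg

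The Vps13d copy (chr4:144975129-144975158, minus strand) and the Atg2a copy (chr19:6261819-6261848, plus strand) lay at the very end of the coding sequence, with the A of the motif 7 and 4 nt before the last base of the stop codon. In Lyst (chr13:13776017-13776046, plus strand) and Unc13d (chr11:116063686-116063715, minus strand) the copy was in the coding sequence, 193 and 172 nt before that base. In Lrba (chr3:86781694-86781723, plus strand) and Hps6 (chr19:46006083-46006112, plus strand) it was in the 3′ UTR, 47 and 54 nt after it. For Nbeal2, the member recovered most strongly, the printed copy was at chr9:110629206-110629235 (minus strand), 1951 nt before the stop codon. That of Hip1 at chr5:135436455-135436484 (minus strand) lay 1932 nt before it, and both were in the coding sequence. A match of these letters is a description of the annotated transcript, not a measured methylation or binding site, since the table has a single value per gene.

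At least 1 GGACT was found in the annotated transcript of 65 of the 66 members (98.5%), against 96.6% of the listed protein-coding genes and 86.8% of all protein-coding genes. Vps9d1, whose protein has a VPS9 domain as found in activators of Rab GTPases, was the member without it. Its density was a median of 1.13 copies per kb in the members and 1.13 in the listed protein-coding genes, which were thus alike in this measure. Within 200 nt of the stop codon on either side, 27 of the 60 members with a full window held a copy (45.0%), compared with 41.8% of listed and 38.7% of all protein-coding genes. Only the sense strand of the transcript with the longest coding sequence was searched.

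The members had long transcripts with many exons. The median annotated transcript was 5039 nt long with 23 exons, against 4718 nt and 16 exons for the listed protein-coding genes and 2542 nt and 7 exons for all protein-coding genes. Of the 341 annotated protein-coding genes that the naming rule covers, 66 (19.4%) are in the table, compared with 1903 of all 21894 protein-coding genes (8.69%). The share listed rose from class to class of exon length for all protein-coding genes, and for the trafficking genes it was highest in the longest classes. Among genes in the longest of 5 classes of total exon length, 38 of 105 trafficking genes (36.2%) and 23.4% of all protein-coding genes are listed, whereas 0 of 18 trafficking genes in the shortest class are listed. These shares are descriptions, as expression of genes outside the table in NK cells was not analysed here.

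**Figure D1:**
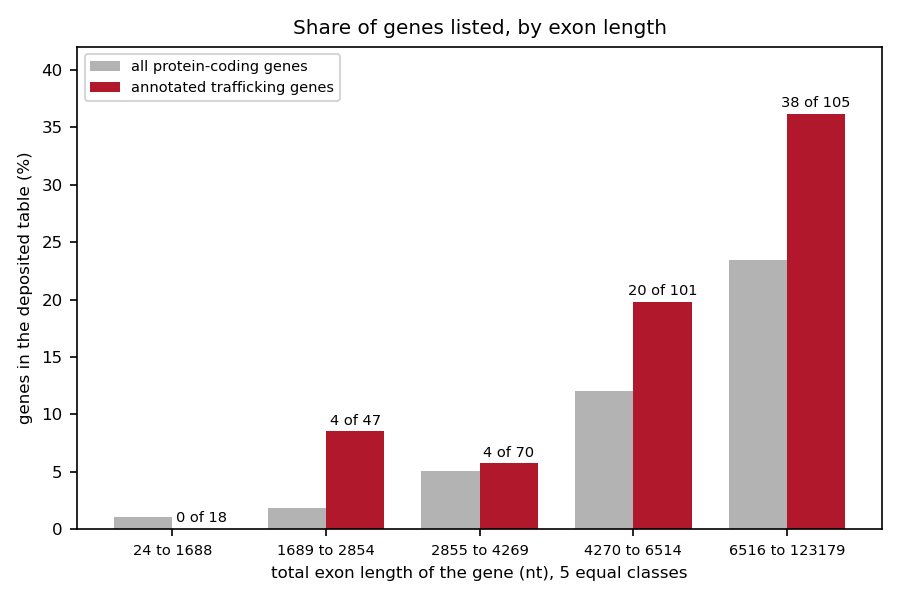
The bars give the percentage of annotated protein-coding genes that the deposited table lists (y axis) in 5 equal classes of total exon length in nt (x axis), for all protein-coding genes in grey and for genes covered by the naming rule in red, with the number listed of the number annotated above each red bar. The share of trafficking genes is 36.2% in the longest class and 19.8% in the next, and 0 to 8.51% in the shorter classes.

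Listing was uneven among protein complexes. Of the 8 HOPS and CORVET subunits, which tether late and early endosomes for fusion, 6 are listed. Of 8 proteins with a BEACH domain that were looked for, 7 are listed. Of the large subunits of clathrin-type adaptor complexes 7 of 13 are in the table, compared with 0 of 15 medium and small subunits. The median exon length is 3184 nt for the medium and small subunits and 5663 nt for the large ones. Within the large ones, however, it is 4957 nt for the listed genes and 5978 nt for the others, and the part of length was not tested. The retromer, which returns receptors from endosomes, has 0 of 4 genes listed, the COG complex of the Golgi 2 of 8, the COPII coat 3 of 13 and the exocyst 1 of 9. Of 4 genes needed for release of lytic granules, Unc13d is listed, whereas Stx11, Stxbp2 and Rab27a are not. The counts include Tgfbrap1, Nsmaf and Ap5z1, which belong to these complexes or families but not to the naming rule.

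All 66 members were higher in METTL3-RIP than in input at an adjusted p under 0.05 (limma on log2(RPKM + 1)), as were 99.9% of all listed genes. Fold changes of 1 or more on this log2 scale were reached by 61 members, against 75.0% of all listed genes. The lowest METTL3-RIP value exceeded the highest input value in all 66 members and in 99.8% of the table. The median log2 fold change was 1.96 over the members and 1.72 over all listed genes. As the table was chosen for this contrast, these counts are given only as a description.

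The members had higher levels than the table at large in both kinds of library. Their medians were 4.53, 4.13 and 3.39 RPKM in replicates 1, 2 and 3 of METTL3-RIP, where all listed genes had medians of 3.13, 3.20 and 2.74. In input the members' medians were 0.360, 0.322 and 0.247, and those of all listed genes 0.202, 0.194 and 0.164. The libraries of a group were not equal, since METTL3-RIP replicate 3 had the lowest value of its group in 46 members (69.7%) and in 59.3% of all listed genes. Input replicate 3 was lowest in 40 members (60.6%) and in 44.5% of all listed genes.

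The ratio of group means, METTL3-RIP over input, had a median of 12.4 over the members and 14.4 over all listed genes. The members ran from 9.41-fold in Golga3 to 31.9-fold in Nbeal2, and the table as a whole starts at 9.14-fold. Reads of the members made up 0.371% ± 0.0315 (SD, n = 3) of METTL3-RIP reads and 0.0276% ± 0.00298 of input reads. Within the reads that fell on listed genes, their share was 2.58% ± 0.0377 in METTL3-RIP, against 2.91% ± 0.0673 in input, with each input value above each METTL3-RIP value. The exact two-sided permutation test of 3 libraries against 3 cannot give a p below 0.1, so this difference was not called.

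**Figure D2:**
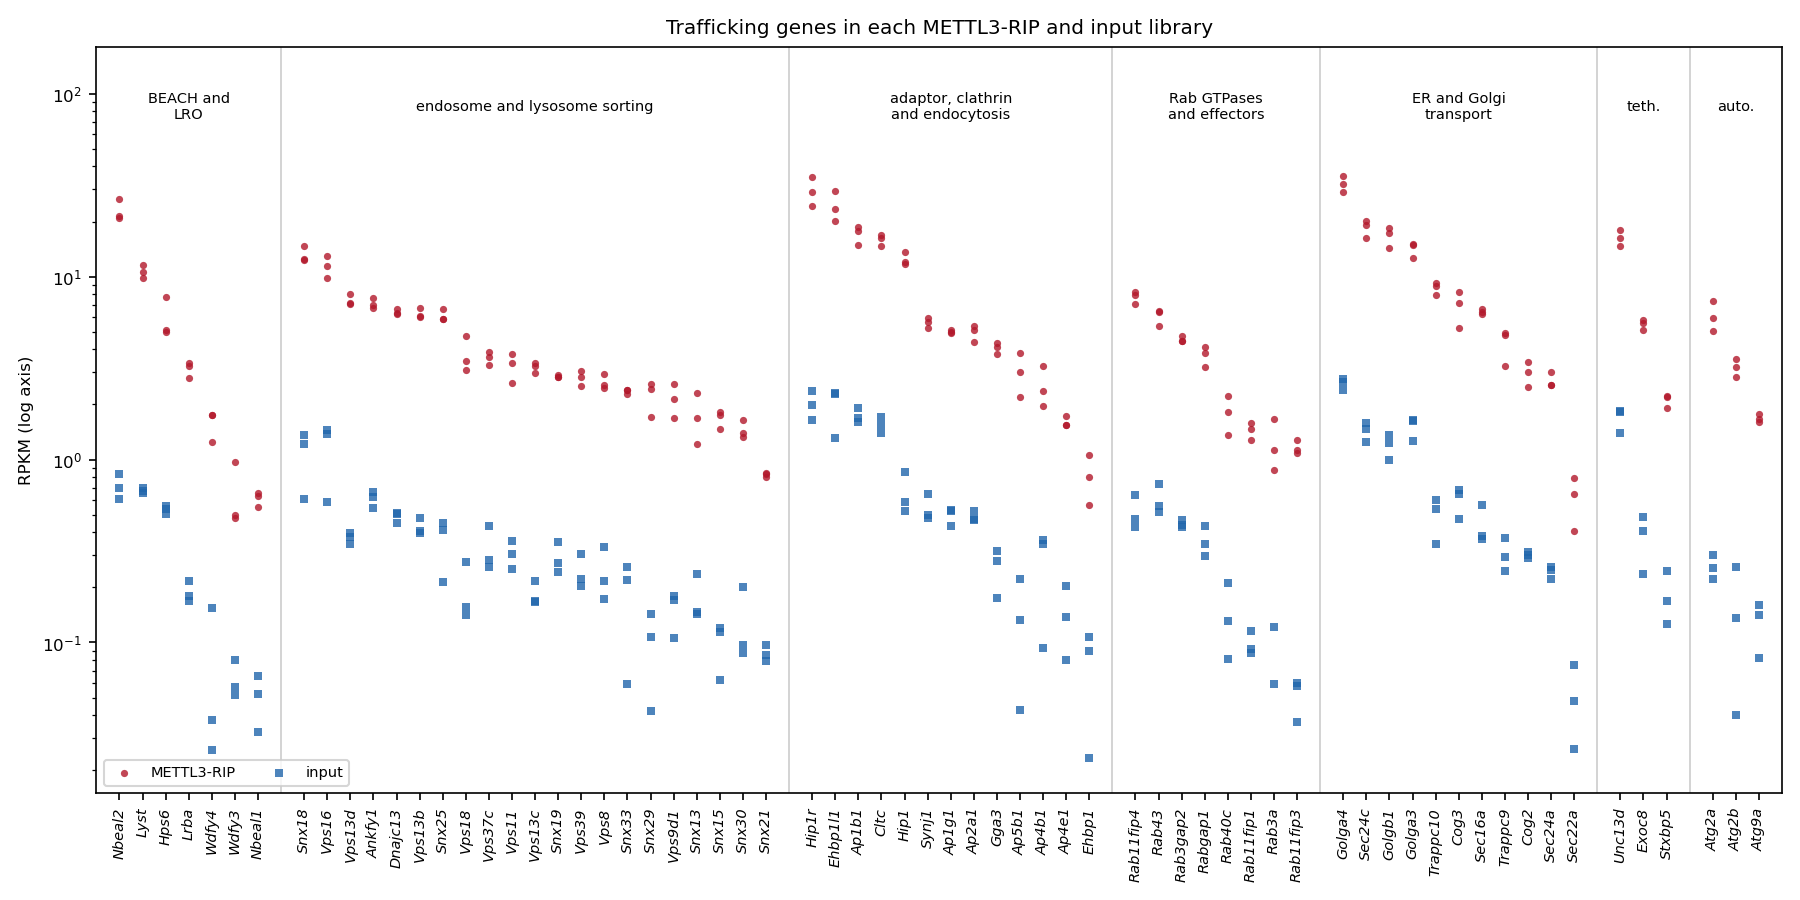
Each point is the RPKM of a gene (log y axis) in a METTL3-RIP library (red circles) or an input library (blue squares), with the 66 genes on the x axis grouped by role and ordered by METTL3-RIP level. LRO stands for lysosome-related organelle, teth. for tethering and fusion at the plasma membrane and auto. for autophagy, and the input replicate in which Rab3a is at 0 is not drawn. The red and blue points of every gene are apart, and METTL3-RIP means run from 0.613 in Nbeal1 to 32.2 in Golga4.

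Because the direction was fixed, a further comparison asked which members were recovered more or less than the median listed gene. It used the same libraries by which the table was chosen, so it describes only the order within the table. Over all listed genes the ratio of means runs from 9.14 to 624, with a median of 14.4. Genes with smaller ratios are absent, so a lower ratio could show only over a narrow range. Each library was centred on its median over all listed genes on the log2(RPKM + 0.1) scale and limma was fitted to the whole table. The median listed gene thus stands for the median level of each library, not for the gene with the median fold change. Over all listed genes the centred log2 fold change had a median of -0.21, against -0.22 over the members. On recovered reads, described below, these medians were 0.11 and -0.15. By this measure 4 members were higher than the median listed gene (Nbeal2, Atg2a, Hip1 and Vps13d), where 11.2% of all listed genes were. Lower recovery was called for 6 members (Wdfy3, Sec22a, Nbeal1, Snx21, Ehbp1 and Snx19), where 19.9% of all listed genes were.

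The lower calls went with low levels. Of the 6 lower members 5 had a mean under 1 RPKM over the 6 libraries, as did 503 of the 528 lower genes of the table. A pseudocount compresses the fold change of such genes, so a limma fit with voom weights on read numbers recovered from the RPKM values was set beside it. There 1 member was higher, Nbeal2, where 8.90% of all listed genes were higher. Lower calls were made for 3 members, Golga3, Unc13d and Ap1b1, where 2.15% of all listed genes were lower. The ratios of means of these 3, 9.41, 9.67 and 9.87, were near the lowest of the table (9.14). These 3 were also called lower in the centred RPKM fit with a pseudocount of 0.01, by -0.72, -0.68 and -0.65 (adjusted p up to 0.0083, limma). After quantile normalization they were called lower by -0.59, -0.51 and -0.49 (adjusted p up to 0.027, limma). With a pseudocount of 1 they were instead called higher than the median listed gene, by 0.84, 0.93 and 0.96 (adjusted p up to 5.2e-05, limma). The direction of these 3 calls thus depended on the setting. None of the 6 members that were lower in the main RPKM fit passed the test on recovered reads. Their centred log2 fold changes on reads ran from -0.63 in Snx21 to -0.15 in Nbeal1. Snx19, the lower member with a mean above 1 RPKM, kept its size at -0.50 but not its call (adjusted p = 0.18, limma with voom weights). The counts followed the pseudocount, with 31 members higher and 18 lower at a pseudocount of 1 and 1 higher and 8 lower at 0.01. The shares of all listed genes at these pseudocounts are not given, so the counts show only the dependence on the setting. Leaving out METTL3-RIP replicate 1 or 2 left 1 member higher, and leaving out METTL3-RIP replicate 3 or input replicate 2 left 2. Nbeal2 was called higher in all 13 alternatives of this fit.

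**Figure D3:**
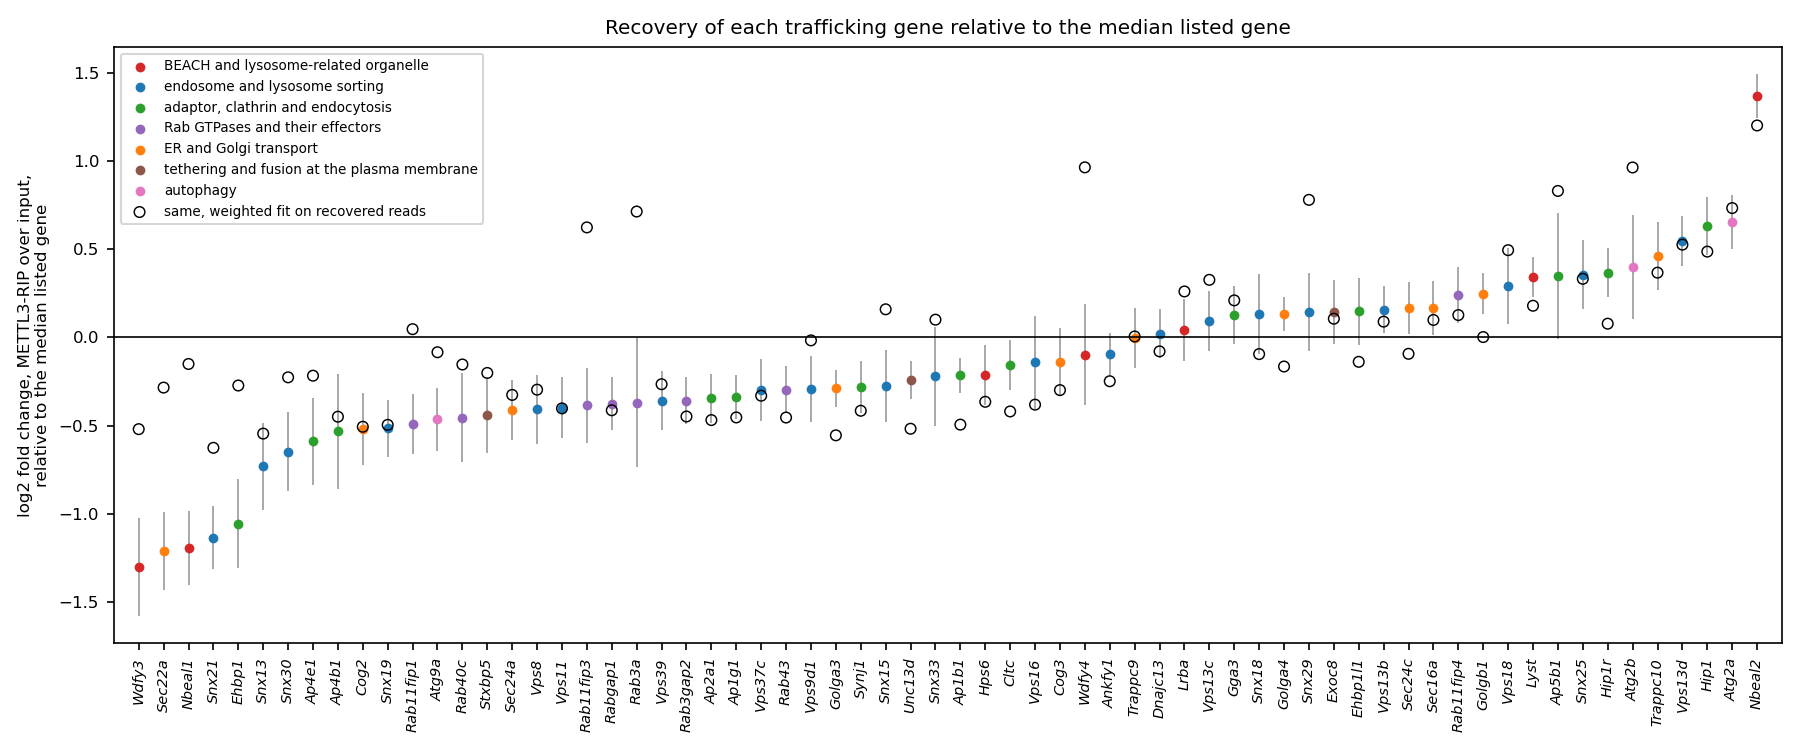
Filled points give the log2 fold change of METTL3-RIP over input after each library was centred on its median over all listed genes (y axis). Bars give its standard error. The 66 genes on the x axis are coloured by role, and open circles give the same quantity from the weighted fit on recovered reads. Nbeal2 stands at 1.37 and 1.20 in both fits, while Wdfy3, Sec22a, Nbeal1, Snx21 and Ehbp1 at the left end have open circles well above their filled points.

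The BEACH domain proteins are very large scaffolds that act in the fission, fusion and sorting of lysosomes, granules and autophagosomes. Among them Nbeal2, which platelets need to form their alpha granules, was recovered most strongly. Its RPKM was 21.3, 26.4 and 20.8 in METTL3-RIP, against 0.839, 0.70 and 0.612 in input, so the groups did not overlap and replicate 2 was the highest of the METTL3-RIP libraries. Relative to the median listed gene its log2 fold change was 1.37 ± 0.12 (SE, n = 3 per group, adjusted p = 0.00056, limma), and 1.20 on recovered reads (adjusted p = 0.00064, limma with voom weights). It ranked 107th of the 2652 listed genes by the former value, and 357th by the fold change on recovered reads without centring. Nbeal2 lies at chr9:110624789-110654161 on the minus strand, and 0.230% of its exonic bases are shared with a microRNA gene on the same strand.

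Lyst, the lysosomal trafficking regulator whose loss gives enlarged lysosomes and granules in Chediak-Higashi syndrome, had the next highest level of this family. Its RPKM was 11.6, 10.5 and 9.83 in METTL3-RIP, against 0.701, 0.673 and 0.656 in input, with an input spread of 3.33% (CV), the smallest of all members. The METTL3-RIP mean was 15.7-fold above the input mean, yet relative to the median listed gene the log2 fold change of 0.34 ± 0.11 missed the threshold (adjusted p = 0.056, limma). On recovered reads this fold change was 0.18 (adjusted p = 0.47, limma with voom weights). Lyst lies at chr13:13590397-13778803 on the plus strand.

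Lrba, a BEACH protein that keeps receptors such as CTLA4 from lysosomal degradation, had 3.36, 3.26 and 2.80 RPKM in METTL3-RIP, against 0.180, 0.168 and 0.218 in input. Its centred log2 fold change was 0.04 ± 0.17 (adjusted p = 0.87, limma), so it was not told apart from the median listed gene. Wdfy4, known from cross-presentation in dendritic cells, was at 1.76, 1.75 and 1.25 RPKM in METTL3-RIP, against 0.0375, 0.155 and 0.0259 in input, where replicate 2 stood well above the others. These input values rest on 6, 26 and 4 recovered reads. Its METTL3-RIP mean was 21.8-fold above input, and the centred value was -0.10 ± 0.29 (log2, adjusted p = 0.81, limma). On recovered reads this value was 0.96 and was not called (adjusted p = 0.20, limma with voom weights).

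The remaining family members were near the lower end of the range. Wdfy3, an adaptor of selective autophagy, had 0.963, 0.481 and 0.497 RPKM in METTL3-RIP, against 0.0514, 0.0570 and 0.0797 in input, and Nbeal1 had 0.632, 0.552 and 0.655 in METTL3-RIP, against 0.0323, 0.0660 and 0.0526 in input. Both were called lower than the median listed gene on the RPKM scale, by -1.30 ± 0.28 for Wdfy3 (adjusted p = 0.014, limma) and -1.20 ± 0.21 for Nbeal1 (adjusted p = 0.0065, limma). Neither call was made on recovered reads, where the adjusted p was 0.47 for Wdfy3 and 0.79 for Nbeal1 (limma with voom weights). On the RPKM scale the family thus held the highest and the lowest of the 66 centred values, whereas on recovered reads the lowest was that of Snx21.

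Outside the BEACH family, Unc13d had the highest level among the members from granule and lysosome-related organelle disorders. It encodes Munc13-4, which primes lytic granules for fusion with the plasma membrane and is lost in a form of familial haemophagocytic lymphohistiocytosis. Its RPKM was 16.2, 18 and 14.7 in METTL3-RIP, against 1.82, 1.83 and 1.39 in input, a 9.67-fold ratio of means that was among the smallest of the members. The centred log2 fold change was -0.24 ± 0.11 (adjusted p = 0.13, limma) on the RPKM scale. On recovered reads it was -0.52 and was called lower (adjusted p = 0.032, limma with voom weights). With a pseudocount of 1 it was 0.93 and was called higher (adjusted p = 4.2e-05, limma). The gene lies at chr11:116062095-116077961 on the minus strand.

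Hps6, a subunit of the BLOC-2 complex that directs cargo to lysosome-related organelles, is a gene with a single exon at chr19:46003508-46006173 on the plus strand. Its RPKM was 5.13, 7.76 and 4.99 in METTL3-RIP, with replicate 2 apart from the others, against 0.536, 0.557 and 0.504 in input. Hps6 was the only listed gene of the 5 HPS genes looked for. Its centred log2 fold change was -0.21 ± 0.17 (adjusted p = 0.37, limma), and was not called.

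Of 68 annotated endosome and lysosome sorting genes 21 were listed, with METTL3-RIP means from 0.827 to 13.2 RPKM and a median of 3.20. Snx18, a sorting nexin that bends membranes, had the highest level of them, with 12.3, 14.8 and 12.4 RPKM in METTL3-RIP, against 1.36, 1.21 and 0.612 in input, where replicate 3 was low. The 5 HOPS and CORVET members Vps8, Vps39, Vps11, Vps18 and Vps16 ran from 2.65 to 11.4 RPKM in METTL3-RIP and from 0.191 to 1.13 in input. Their ratios of means lay between 10.1 and 19.7, and 0 of the 5 differed from the median listed gene in the centred fit.

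The VPS13 proteins are bridges that carry lipids between membranes. Vps13d, which acts at mitochondria and at contacts with the endoplasmic reticulum, had 7.09, 7.99 and 7.13 RPKM in METTL3-RIP, against 0.376, 0.343 and 0.395 in input. It was recovered more than the median listed gene by 0.55 ± 0.14 on the log2 scale (adjusted p = 0.026, limma), whereas on recovered reads the value was 0.52 (adjusted p = 0.052, limma with voom weights). This call was lost when any library but input replicate 3 was left out, with adjusted p up to 0.097. Vps13b, the gene of Cohen syndrome, had 6.73, 6.04 and 6.09 RPKM in METTL3-RIP, against 0.476, 0.398 and 0.407 in input, and the centred value was 0.16 ± 0.13 (log2, adjusted p = 0.40, limma). Vps13c had a centred value of 0.09 ± 0.17 (log2, adjusted p = 0.70, limma). The ratios of means of the 3 listed VPS13 genes fell between 14.7 and 19.9.

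The sorting nexins Snx19 and Snx21 had the smallest recovery among genes of this role that passed the test. Snx21, found on early endosomes, had 0.849, 0.830 and 0.801 RPKM in METTL3-RIP, against 0.0966, 0.0788 and 0.0857 in input, a narrow spread in both groups. Its centred log2 fold change was -1.14 ± 0.18 (adjusted p = 0.0040, limma), against -0.63 on recovered reads (adjusted p = 0.31, limma with voom weights). Snx19 had a centred value of -0.52 ± 0.16 (adjusted p = 0.0499, limma), which lay at the threshold and was kept only without input replicate 1 (adjusted p = 0.0498) among the fits that left out a library.

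Of 44 annotated adaptor, clathrin and endocytosis genes 13 were listed. Hip1r, which links clathrin coats to actin, had the highest level of them, with 28.9, 34.9 and 24.3 RPKM in METTL3-RIP, against 1.98, 2.36 and 1.65 in input. Its paralogue Hip1 had 12, 13.7 and 11.7 RPKM in METTL3-RIP, against 0.856, 0.521 and 0.587 in input, and was recovered more than the median listed gene by 0.63 ± 0.17 (adjusted p = 0.027, limma), a call that was lost when any library but input replicate 1 was left out, with adjusted p up to 0.088. Hip1r, with 0.37 ± 0.14, did not pass (adjusted p = 0.086, limma). The difference between the paralogues was not tested. Both lie on chromosome 5, at chr5:135406531-135545120 (Hip1, minus strand) and chr5:123973628-124005558 (Hip1r, plus strand), and 12.5% of the exonic bases of Hip1r are overlapped by the other strand's Vps37b.

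Cltc, the clathrin heavy chain, was at 14.7, 16.3 and 16.9 RPKM in METTL3-RIP, against 1.70, 1.41 and 1.54 in input. Ap1b1, the beta subunit of the AP-1 adaptor of the trans-Golgi network and endosomes, had 17.8, 18.7 and 14.9 in METTL3-RIP, against 1.92, 1.68 and 1.60 in input. On recovered reads it was called lower than the median listed gene by -0.50 (adjusted p = 0.041, limma with voom weights). With a pseudocount of 1 it was called higher, by 0.96 (adjusted p = 2.2e-05, limma). The 6 adaptor members covered AP-1, AP-2, AP-4 and AP-5, with ratios of means from 9.47 in Ap4b1 to 22.8 in Ap5b1. No AP-3 gene, the adaptor of lysosome-related organelles, is a member. Ehbp1, a Rab effector that binds actin, had 1.06, 0.804 and 0.567 RPKM in METTL3-RIP, against 0.0902, 0.107 and 0.0233 in input, and was the lowest of the role with a centred change of -1.06 ± 0.25 (log2, adjusted p = 0.020, limma). On recovered reads it was -0.27 (adjusted p = 0.74, limma with voom weights), and the call was lost without METTL3-RIP replicate 2 or 3 or input replicate 2 (adjusted p 0.060, 0.068 and 0.056).

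**Figure D4:**
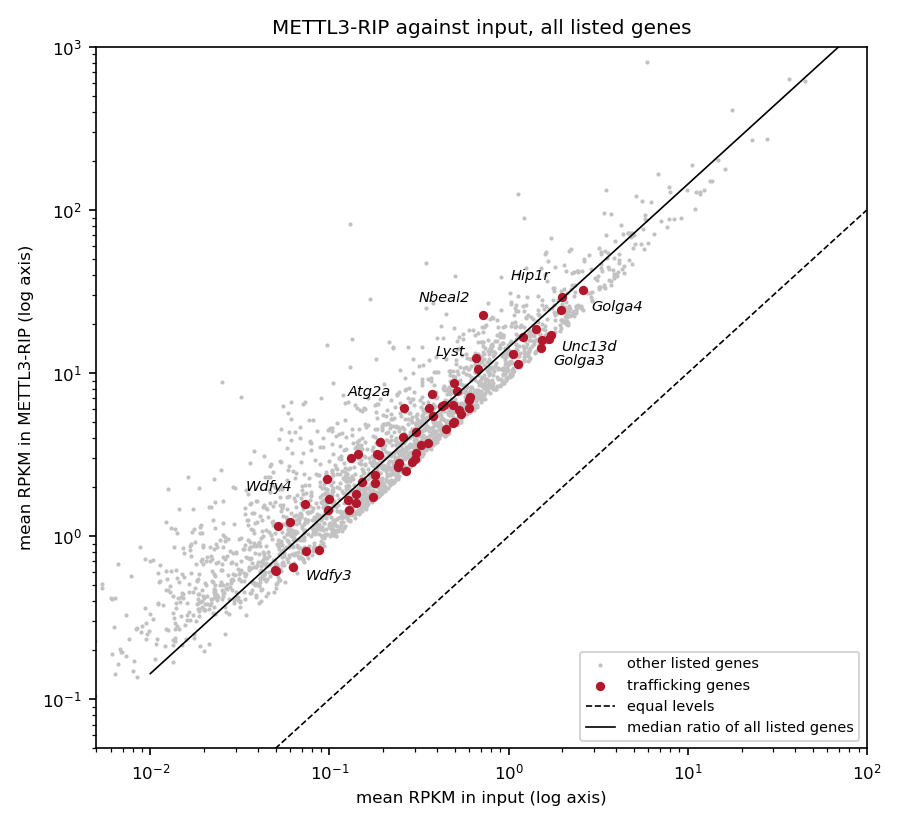
Each point is a listed gene, with its mean RPKM over 3 input libraries (log x axis) and over 3 METTL3-RIP libraries (log y axis), in red for the trafficking genes and in grey for the others, and genes at 0 in input are not drawn. The dashed line marks equal levels and the solid line the median ratio of all listed genes, 14.4. Nbeal2, with a ratio of 31.9, lies farthest above the solid line among the red points, and Golga3 and Unc13d lie below it.

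Rab GTPases mark membranes and recruit motors and tethers, and 8 of their 71 annotated genes and effectors of the rule were listed. Rab11fip4, an effector of the recycling GTPase Rab11, had the highest level of them, with 7.07, 8.22 and 7.91 RPKM in METTL3-RIP, against 0.476, 0.638 and 0.429 in input. Rab11fip1 had the lowest centred value of the role, at 1.47, 1.58 and 1.29 RPKM in METTL3-RIP, against 0.116, 0.0926 and 0.0881 in input. Neither was called different from the median listed gene, with centred log2 fold changes of 0.24 ± 0.16 in Rab11fip4 (adjusted p = 0.28, limma) and -0.49 ± 0.17 in Rab11fip1 (adjusted p = 0.067, limma). Rab3a, a GTPase of regulated secretion, was at 1.67, 1.12 and 0.875 RPKM in METTL3-RIP, against 0.0590, 0 and 0.122 in input, where 2, 0 and 4 reads were recovered, so its fold change is poorly determined.

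Transport through the endoplasmic reticulum and Golgi gave the member with the highest level, Golga4, a golgin that captures vesicles at the trans-Golgi. Golga4 had 32.0, 35.4 and 29.1 RPKM in METTL3-RIP, against 2.65, 2.75 and 2.40 in input, and its centred log2 fold change of 0.13 ± 0.10 was not called (adjusted p = 0.31, limma). Golga3, another golgin, had 15, 15.1 and 12.7 in METTL3-RIP, against 1.65, 1.63 and 1.26 in input. On recovered reads it was lower than the median listed gene by -0.56 (adjusted p = 0.011, limma with voom weights). With a pseudocount of 1 it was called higher, by 0.84 (adjusted p = 5.2e-05, limma). Trappc10, a subunit of a TRAPP complex that activates Rab GTPases, had the highest centred value of the role at 8.85, 9.21 and 7.95 RPKM in METTL3-RIP, against 0.598, 0.347 and 0.539 in input, and this centred value of 0.46 ± 0.19 (log2) did not pass (adjusted p = 0.11, limma). Sec22a, a SNARE-like protein of the endoplasmic reticulum, had 0.652, 0.797 and 0.405 RPKM in METTL3-RIP, against 0.0755, 0.0479 and 0.0260 in input. Its centred log2 fold change was -1.21 ± 0.22 (adjusted p = 0.0074, limma), compared with -0.29 on recovered reads (adjusted p = 0.71, limma with voom weights).

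Of 60 annotated genes of tethering and fusion at the plasma membrane, which include the syntaxins and synaptotagmins, 3 were listed, the smallest share of the 7 roles (5%). Beside Unc13d these were Exoc8, an exocyst subunit, with 5.55, 5.81 and 5.12 RPKM in METTL3-RIP, against 0.486, 0.408 and 0.237 in input, and Stxbp5, tomosyn, which holds back SNARE assembly, with 1.92, 2.23 and 2.21 and 0.245, 0.126 and 0.169. Neither differed from the median listed gene in the centred fit, at 0.14 ± 0.18 in Exoc8 (adjusted p = 0.56, limma) and -0.44 ± 0.22 in Stxbp5 (adjusted p = 0.16, limma).

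The autophagy members were Atg2a and Atg2b, lipid transfer proteins that feed the growing autophagosome membrane, and Atg9a, a scramblase of its seed vesicles. Atg2a had 5.93, 7.36 and 5.03 RPKM in METTL3-RIP, against 0.256, 0.301 and 0.221 in input, and was recovered more than the median listed gene by 0.65 ± 0.15 (adjusted p = 0.019, limma), against 0.73 on recovered reads (adjusted p = 0.055, limma with voom weights). The call was lost without METTL3-RIP replicate 1 or 2 (adjusted p 0.055 and 0.073, limma). It lies at chr19:6241668-6262335 on the plus strand. Atg2b had 3.52, 3.20 and 2.83 RPKM in METTL3-RIP, against 0.258, 0.135 and 0.0401 in input, a 22-fold ratio of means close to the 23.6-fold of Atg2a, but its input values differed widely and the centred log2 fold change of 0.40 ± 0.29 was not called (adjusted p = 0.32, limma). Atg9a had 1.66, 1.77 and 1.60 RPKM in METTL3-RIP, against 0.160, 0.141 and 0.0826 in input, with a centred value of -0.47 ± 0.18 (log2, adjusted p = 0.090, limma).

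By role, the median ratio of means was 22 over the 3 autophagy members and 15.7 over the 7 BEACH and lysosome-related organelle members, and between 11.0 and 13.7 in the other 5 roles. The smallest of these was that of the adaptor, clathrin and endocytosis genes. The ranges overlapped, since the BEACH group alone ran from 10.3 in Wdfy3 to 31.9 in Nbeal2. Among the members, neither exon length (Spearman's rho 0.15) nor GGACT density (rho 0.14) went closely with the centred log2 fold change (n = 66 genes, which share the libraries). The level in METTL3-RIP, itself a part of the fold change, went with it on the RPKM scale (rho 0.72, against 0.78 over all listed genes). On recovered reads this level did not go with the fold change among the members (rho 0.03, against -0.21 over all listed genes). Of the members, 15 (22.7%) had a mean under 1 RPKM, compared with 37.0% of all listed genes.

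Trafficking genes outside the naming rule were taken from a list of 177 symbols, of which 40 (22.6%) were in the table. All 40 were higher in METTL3-RIP, as were 99.9% of all listed genes, a direction fixed by the choice of the table. A change of at least 1 on the log2 scale was reached by 35 of the 40, against 75.0% of all listed genes. The median log2 fold change was 2.0 over the 40 and 1.72 over all listed genes. In the centred fit 4 of the 40 were higher and 6 lower than the median listed gene, beside 11.2% and 19.9% of all listed genes. On recovered reads 3 of the 40 were higher and 0 lower, beside 8.90% and 2.15% of all listed genes. Igf2r, the receptor that carries lysosomal enzymes with mannose 6-phosphate to endosomes, was named after its values were seen. It had 16.9, 18.5 and 16.7 RPKM in METTL3-RIP, against 1.35, 1.33 and 1.22 in input, 13.4-fold by means. Of the granule contents and membrane proteins on the list, Prf1, Gzma, Gzmb, Srgn, Nkg7 and Lamp1 are not in the table.

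Some levels are uncertain because exons overlap other genes, and no source says whether counting used the strand. On the same strand, the overlap with another annotated gene covered 75.4% of the exonic bases of Rab43, 82.4% of Ap4b1 and 31.8% of Atg9a. On the other strand it covered 19.3% of Rab3gap2, 18.7% of Ap1g1 and 16.7% of Ap2a1. Input precision was limited by the low input level of the listed genes, although the input libraries were the deeper ones, as the median member had 36, 32 and 24.5 recovered reads in the 3 input libraries and 274.5, 273 and 278.5 in METTL3-RIP. Fewer than 10 input reads were recovered for 8, 6 and 15 members in input replicates 1, 2 and 3.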

How the data were processed

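The libraries were stranded, paired-end and made from polyA RNA of 3 METTL3-RIP and 3 input samples, grouped by their titles. Per the submitters' processing notes, reads were trimmed (Trimmomatic 0.36) and mapped to GRCm38 (STAR 2.5.3a). Which program counted reads, with which annotation and whether by strand, is not given in the sources used here. The authors deposited a table of 2652 genes with a value per library, which the values show to be RPKM, and columns with their own log2 fold change and p-value, which were not used. Of the per-library columns, none was left unmapped.

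RPKM values were transformed to log2(RPKM + 1), and, for the centred comparison, to log2(RPKM + 0.1) less each library's median over all listed genes. Groups were compared with limma 3.58.1 in R 4.3.3 (eBayes with a trend, two-sided) and no filter, and p-values were adjusted over the 2652 genes by Benjamini-Hochberg (threshold 0.05). These fold changes understate the change of genes with low values. Scripts were tested on simulated data, where the centred RPKM fit also called many unchanged genes of low level lower and some of higher level higher, which is why recovered reads are given beside it.

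Library totals were recovered as the numbers of reads that made RPKM values whole multiples of 1 read with GENCODE M21 exon lengths. This held within 0.02 reads for 83.4% to 84.8% of values. For 19 of the 66 members another length was needed, so their read numbers are less certain. Among genes with 1 to 20 recovered reads, 77.6% to 83.7% had an even number in the input libraries and 67.0% to 74.3% in METTL3-RIP, so read pairs may have been counted as separate reads. The voom fit, run as an alternative, used these reads, in METTL3-RIP and input libraries alike, at face value.

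The text names members of the BEACH family and of granule disorders, per role the member with the highest level and those with the largest and smallest centred log2 fold change, and the 5 largest and 5 smallest centred changes past the threshold. Ap1b1, Ap4b1, Ap5b1, Atg2b, Cltc, Golga3, Rab3a, Snx19, Vps13c, Vps9d1, the HOPS and CORVET subunits and the genes with overlapping exons were named in addition, after their values were seen. The members and the gene lists were chosen with earlier results of these data known. Gene models were those of GENCODE M21, with GRCm38 coordinates counted from 1, and sequences are from that genome. Alternatives were other pseudocounts, a filter of 1 RPKM, other scalings, no trend, a replicate block, each library left out, and voom.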

Additional observations from a re-analysis of the deposited data

How the results depend on the processing

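With 3 libraries against 3 and few input reads per gene, small differences from the median listed gene could not be resolved, and calls near the threshold were lost with single libraries. Counts in this section are given without the shares of all listed genes, so they show only how the calls depend on the setting. All 66 members were higher in METTL3-RIP with pseudocounts of 0.1 and 5, without the trend, on recovered reads and when each library was left out, as were the 51 members that passed the filter of 1 RPKM. Quantile normalization and median centring remove the overall difference between the groups by construction. They left 1 and 31 members higher, 2 and 22 of the other trafficking genes higher, and 0 and 9 members with a log2 fold change of at least 1, and a pseudocount of 5 left 24 of the latter. The median log2 fold change of the members was 3.23 with a pseudocount of 0.1, 0.77 with 5, 2.16 with the filter, 3.64 on recovered reads, 0.20 after centring and -0.15 after quantile normalization, and 1.92 to 1.98 with a library left out. With the filter, the median RPKM of the members was 5.60 in METTL3-RIP and 0.438 in input, against 4.01 and 0.310 without it, and 3.76 to 4.33 and 0.284 to 0.341 with a library left out.

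The number of members above the median listed gene (4) was 31 with a pseudocount of 1, and 1 with a pseudocount of 0.01, after quantile normalization and on recovered reads, and with a library left out it was 1 (without METTL3-RIP replicate 1 or 2), 2 (without METTL3-RIP replicate 3 or input replicate 2) or 3. The number below it (6) was 18 with a pseudocount of 1, 3 on recovered reads, 0 among members that passed the filter, and 4 to 8 with a library left out. A log2 fold change of at least 1 was reached by 60 to 61 members with a library left out. After quantile normalization the log2 fold change against input was below 0 in 46 of the 66 members, among them 12 of the 24 named by rule, Unc13d (-0.40), Snx21 (-0.32), Wdfy3 (-0.31), Ehbp1 (-0.26), Nbeal1 (-0.26), Sec22a (-0.25), Hps6 (-0.22), Stxbp5 (-0.19), Golga4 (-0.16), Atg9a (-0.15), Rab11fip1 (-0.13) and Snx18 (-0.11). After median centring it was below 0 in 26 of the 66 members, among them 9 of the 24, Sec22a (-1.14), Nbeal1 (-1.14), Wdfy3 (-1.14), Ehbp1 (-1.01), Snx21 (-1.01), Rab11fip1 (-0.61), Atg9a (-0.51), Wdfy4 (-0.49) and Stxbp5 (-0.36).

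Same-numbered METTL3-RIP and input libraries did not deviate together (correlations of -0.019, -0.019 and 0.078 over genes), so equal numbers were not treated as pairing. With the replicate block there were 66 members higher than input, 61 with a log2 fold change of at least 1 and a median log2 fold change of 1.96, and 2 members above and 5 below the median listed gene. The calls of Hip1 and Vps13d were lost with the replicate block (adjusted p 0.058 and 0.051, limma).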
